A study of Mus musculus with 9 samples.

Results

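The smooth muscle cells of the whole lung, labelled total_SMC, were compared with those of the pulmonary arteries, labelled PASMC, by RNA sequencing of sorted mouse lung cells. The comparison used 3 libraries of each group, 6 of the 9 in the series, which had been chosen by their labels, and it covered 14730 tested genes out of 21049 in the table. PASMC had been sorted from mice called ASMC-effector, whose genotype is given as Cspg4/Acta2-CreER/R26-GFP. It names the pericyte and smooth muscle gene Cspg4, the smooth muscle actin gene Acta2 with a tamoxifen-inducible recombinase, and a green fluorescent reporter at the Rosa26 locus. The total_SMC libraries came from tg-Acta2-GFP mice, a transgene that joins the smooth muscle actin gene to the fluorescent protein, and the design states that this sort takes in venous cells. All mice are labelled as treated with tamoxifen, at 0.75 mg per 10 g body weight on 3 days from a 20 mg/mL solution in corn oil. Age, sex and strain are not among the labels. Mouse line, reporter, sort and cell population changed together, so they cannot be told apart in any value below. Cells of a type becoming fewer and a type holding less RNA per cell cannot be told apart either, because each library is a bulk sample.

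Smooth muscle cells wrap the arteries, veins and airways of the lung and set vessel and airway tone. They contract when calcium activates myosin light chain kinase, and relax when cyclic GMP and cyclic AMP signalling lowers calcium and when myosin phosphatase acts on the light chain. Arteries carry a thick, Notch3-expressing muscle coat. Pulmonary veins of the mouse are wrapped in part by a sheath of cardiac muscle, and the Acta2 promoter is also active in some pericytes, myofibroblasts and other cells of the lung.

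The tested unit is the deposited normalized read count, rounded to a whole number, in which the libraries are scaled to each other. Values are listed in the order of replicates 1, 2 and 3. A gene is called higher or lower in total_SMC where limma on log2 of value plus 1 gave a Benjamini-Hochberg adjusted p under 0.05, and log2 differences are total_SMC minus PASMC with the standard error (SE) of that fit. Implied depth was 8.92 to 10.02 M reads in PASMC and 8.93 to 9.90 M in total_SMC. On the first principal component of the 6 libraries, with 71.4% of the variance, PASMC lay between -63 and -56.7 and total_SMC between 56.8 and 62.1. The second, with 10% of the variance, spread the PASMC libraries from -40.7 in replicate 3 to 32.4 in replicate 2. Some 249 tested genes had at least 1 implied read per exonic base, a density at which counts may stop rising with expression, and 22.9% of those were called.

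Between the groups, 4231 genes were called by limma, which is 28.7% of those tested. The called genes split into 2493 that were higher in total_SMC (16.9% of those tested) and 1738 that were lower (11.8%). Higher genes thus made up 58.9% of the calls, against 49.6% after quantile normalization and 51.3% on counts scaled to the table's totals (CPM). A call with at least a 2-fold difference was made for 2072 genes (14.1%), 1271 of them higher and 801 lower. The values of the 2 groups did not overlap in 6088 genes (41.3%), which is more than were called. The median log2 difference over all tested genes was 0.02, and the counts of gene lists below are to be read against these shares. Of 12 identity genes of smooth muscle, the 3 defining markers Acta2, Myh11 and Tagln were present in every library. Acta2 is in the driver or transgene of both lines, so its presence cannot test the label of smooth muscle cells.

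**Figure D1:**
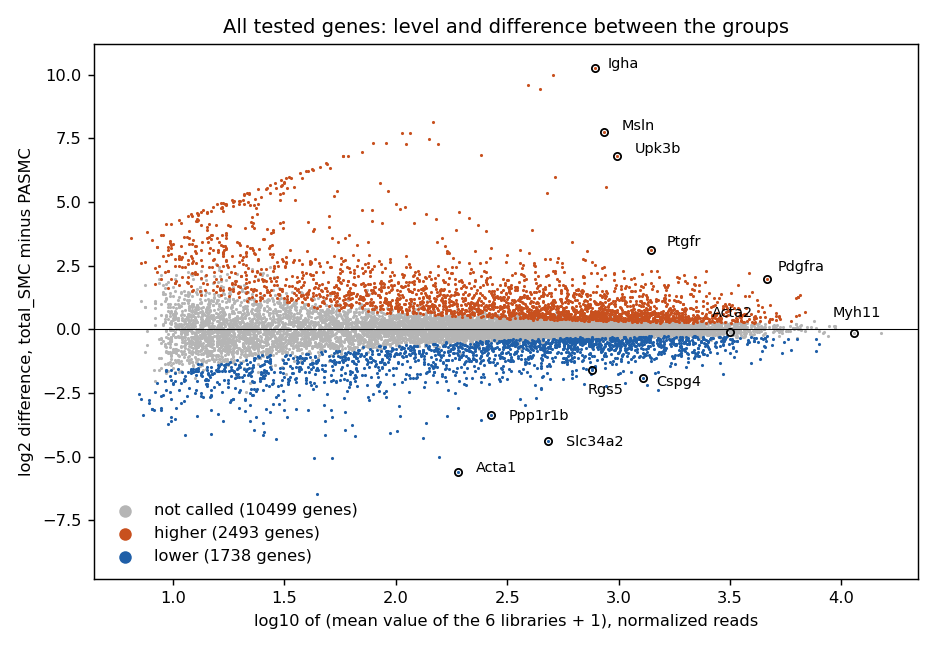
Each dot is 1 of 14730 tested genes, with the log10 of its mean value plus 1 on the horizontal axis and the log2 difference between total_SMC and PASMC on the vertical axis. Orange dots are the 2493 genes called higher, blue dots the 1738 called lower and grey dots the 10499 not called; the rising line of orange dots at low level holds genes at 0 in all PASMC libraries, whose plotted difference depends on the value of 1 added before the logarithm.

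Core smooth muscle genes were abundant in both groups, whereas the genes that mark vascular smooth muscle were mostly lower in total_SMC. Of the smooth muscle identity list, 0 of 12 tested members were called higher and 5 lower, with a median log2 difference of -0.24. Myh11 encodes the myosin of smooth muscle and is annotated as ENSMUSG00000018830 at mm39 chromosome 16, 14012399 to 14109236. Its groups overlap, with values of 12498, 11203 and 12172 in PASMC and 10351, 10055 and 12375 in total_SMC (log2 difference -0.13, SE 0.093, adjusted p = 0.324). It was called lower on 3 of 4 other scalings of the libraries, with log2 differences of -0.20 to -0.18, and without total_SMC replicate 3 (-0.23, adjusted p = 0.0388). Those scalings raised the number of identity genes called lower from 5 to between 8 and 9. Acta2, the smooth muscle actin in the driver or transgene of both lines (ENSMUSG00000035783, mm39 chromosome 19, 34218490 to 34232990), was at 3390, 3058 and 3421 in PASMC and 3065, 2892 and 3094 in total_SMC (log2 difference -0.12, SE 0.087, adjusted p = 0.337). It was called lower after quantile normalization (-0.20, adjusted p = 0.0469). Both it and Myh11 belong to the genes of very dense reads. Tagln, an actin-binding protein of smooth muscle, was lower without overlap, at 441, 424 and 459 in PASMC and 273, 242 and 323 in total_SMC (log2 difference -0.67, SE 0.15, adjusted p = 0.00426).

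In the vascular smooth muscle list, 1 of 19 tested members were called higher and 13 lower, with a median log2 difference of -1.10. Notch3, the Notch receptor of the arterial wall (ENSMUSG00000038146, mm39 chromosome 17, 32339794 to 32385826), was at 2559, 2459 and 2500 in PASMC and 1022, 1498 and 1320 in total_SMC. Every total_SMC library lay below every PASMC library (log2 difference -0.99, SE 0.13, adjusted p = 0.000105). Rgs5, a brake on G protein signalling typical of mural cells, was at 1106, 1088 and 1230 in PASMC and 303, 436 and 394 in total_SMC, again without overlap (log2 difference -1.61, SE 0.14, adjusted p = 5.04e-06). Ntrk3, a neurotrophin receptor, was even across replicates within each group, at 1379, 1344 and 1323 in PASMC and 532, 532 and 514 in total_SMC (log2 difference -1.36, SE 0.1, adjusted p = 1.36e-06). A larger fall was that of Ppp1r1b, a phosphatase inhibitor regulated by protein kinase A (ENSMUSG00000061718, mm39 chromosome 11, 98239230 to 98248622). It was at 432, 524 and 502 in PASMC and 43, 41 and 56 in total_SMC (log2 difference -3.36, SE 0.19, adjusted p = 2.22e-07). Kcnab1, a subunit of voltage-gated potassium channels, was at 1670, 1431 and 1489 in PASMC and 408, 434 and 518 in total_SMC (log2 difference -1.76, SE 0.12, adjusted p = 8.52e-07). None of these 5 genes had a total_SMC library within the PASMC range. Heyl, a transcription factor downstream of Notch, was at 5897, 5471 and 5786 in PASMC and 4988, 4308 and 5134 in total_SMC and did not pass the test (log2 difference -0.25, SE 0.09, adjusted p = 0.0534), but it did on all 4 other scalings, with log2 differences of -0.33 to -0.30. Over these scalings 14 to 15 genes of the list were called lower.

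The remaining mural and mesenchymal markers split. Among pericyte markers, 4 of 16 tested members were called higher and 7 lower, with a median log2 difference of -0.38. Cspg4, the NG2 proteoglycan whose gene is named in the genotype of the PASMC line (ENSMUSG00000032911, mm39 chromosome 9, 56772317 to 56807154), was at 1958, 1658 and 2393 in PASMC and 585, 750 and 331 in total_SMC, lower in every total_SMC library (log2 difference -1.91, SE 0.24, adjusted p = 0.000104). Mcam, an adhesion molecule of mural and endothelial cells, fell too (log2 difference -0.94). Moving the other way were Abcc9 (0.79) and Kcnj8 (0.43), which form the ATP-sensitive potassium channel of pericytes, and the calcium-permeable channel Trpc6 (1.64). Pdgfrb, the receptor found on all mural cells, was at 6688, 6026 and 5434 in PASMC and 6148, 5930 and 6849 in total_SMC (log2 difference 0.063, SE 0.096, adjusted p = 0.686), and its groups overlap. Airway smooth muscle genes gave 3 higher and 8 lower of 16 tested (median -0.38), and genes of alveolar myofibroblasts 2 higher and 7 lower of 12 tested (median -0.61). Lgr6, a receptor that enhances Wnt signalling and a defining marker of the airway list, was at 4848, 4116 and 4619 in PASMC and 1203, 1267 and 1499 in total_SMC (log2 difference -1.78, SE 0.11, adjusted p = 3.02e-07). Hhip, the inhibitor that binds Hedgehog ligands, was at 7579, 7798 and 7414 in PASMC and 3910, 4560 and 4353 in total_SMC (log2 difference -0.83, SE 0.085, adjusted p = 1.67e-05). In the bronchial libraries of the series, which are in no comparison here, Lgr6 averaged 2387 and Hhip 3161, below every PASMC value. Both genes were lower in every total_SMC library than in any PASMC library. By contrast Pdgfra, the PDGF receptor of fibroblasts and myofibroblasts (ENSMUSG00000029231, mm39 chromosome 5, 75312953 to 75358876), was at 2061, 1854 and 1707 in PASMC and 7107, 6749 and 8301 in total_SMC, so the lowest total_SMC library was far above the highest PASMC library (log2 difference 1.98, SE 0.1, adjusted p = 1.31e-07).

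**Figure D2:**
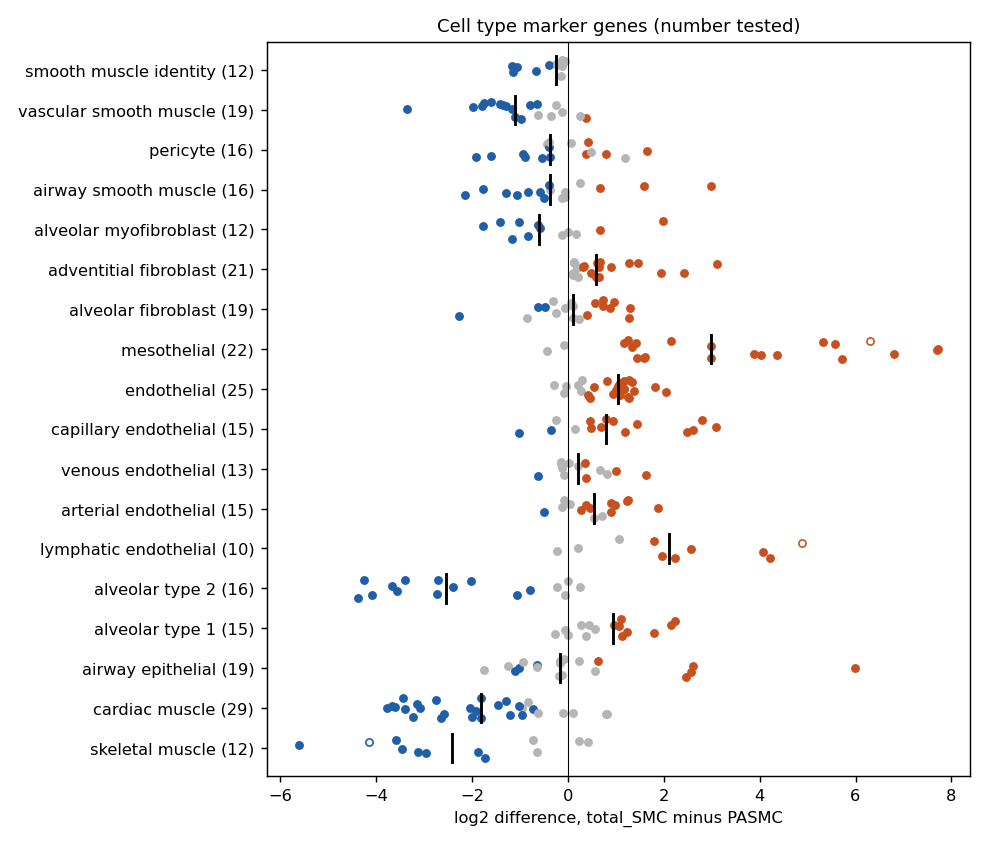
Each dot is 1 tested gene of a cell type marker list, placed by its log2 difference between total_SMC and PASMC; orange is called higher, blue called lower, grey not called, an open dot is a gene at 0 in every library of 1 group, and the black bar is the median of the list. Of the 18 lists drawn, which leave out blood cell, cartilage, nerve and proliferation lists, mesothelial and lymphatic medians lie furthest to the right, at 2.99 and 2.10, and alveolar type 2 and skeletal muscle medians furthest to the left, at -2.55 and -2.41.

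In the contractile machinery, calls of lower genes were most frequent among the proteins that anchor the thin filament. Of the thin filament and calponin family, 3 of 21 tested members were called higher and 4 lower, with a median log2 difference of -0.12. Lmod1, which nucleates actin filaments in smooth muscle, was at 3251, 2827 and 3136 in PASMC and 1446, 1267 and 1750 in total_SMC without overlap (log2 difference -1.06, SE 0.12, adjusted p = 3.68e-05), and Tmod1, a cap on filament ends, fell as well (log2 difference -1.68). Its relatives Tmod3 (0.84) and Tmod2 (1.39) were called higher. Of myosin and its regulators, 3 of 23 tested members were called higher and 7 lower, with a median log2 difference of -0.24. The called ones include all 3 tested targeting subunits of myosin phosphatase, the enzyme that ends contraction. Ppp1r12a was at 4713, 4175 and 4461 in PASMC and 1995, 1997 and 2367 in total_SMC (log2 difference -1.07, SE 0.097, adjusted p = 5.98e-06), and Ppp1r12b (-0.84) and Ppp1r12c (-0.71) moved with it. Of dense body, Z-line and focal adhesion proteins, 2 of 35 tested members were called higher and 19 lower, with a median log2 difference of -0.40. Synpo2, an actin-bundling protein of the Z-line, was at 7323, 5071 and 5489 in PASMC and 2279, 2450 and 3194 in total_SMC (log2 difference -1.17, SE 0.15, adjusted p = 0.000111). Ldb3, which tethers the Z-line, was at 1697, 1583 and 1433 in PASMC and 687, 606 and 839 in total_SMC (log2 difference -1.15, SE 0.13, adjusted p = 3.34e-05). In both, all 3 total_SMC libraries lay below the PASMC range. Xirp1, an actin-binding repeat protein, was also lower (log2 difference -1.76). Flna, the large actin crosslinker filamin A, gave overlapping values of 16276, 14642 and 16194 in PASMC and 13938, 12994 and 16290 in total_SMC (log2 difference -0.13, SE 0.093, adjusted p = 0.348). At least 1 implied read per exonic base, where counts may stop rising, was reached by 7 of 21 tested thin filament genes. For myosin these were 2 of 23 and for dense bodies 4 of 35. The part of this limit in the different call shares of these lists was not tested.

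Some links from muscle to matrix, and some transcription factors of the contractile programme, were lower as well. In the dystrophin complex and caveolae, 1 of 21 tested members were called higher and 6 lower, with a median log2 difference of -0.23. The muscle sarcoglycan Sgca was at 525, 438 and 433 in PASMC and 123, 96 and 172 in total_SMC (log2 difference -1.86, SE 0.21, adjusted p = 3.18e-05), with no overlap between the groups. Cav1, which builds caveolae, was at 4652, 4177 and 4635 in PASMC and 4381, 4312 and 4892 in total_SMC (log2 difference 0.012, SE 0.089, adjusted p = 0.941), groups that overlap. Among the factors that control smooth muscle genes, 4 of 23 tested members were called higher and 11 lower, with a median log2 difference of -0.44. Myocd, the coactivator that drives these genes together with serum response factor, was at 1106, 726 and 1303 in PASMC and 349, 624 and 539 in total_SMC (log2 difference -1.05, SE 0.23, adjusted p = 0.00493), a call that was lost without the trend and robust options of the fit (adjusted p = 0.0509). Tead3 (-1.68), Tbx18 (-1.20) and Hey2 (-1.04) were lower as well, and Tcf21, a factor of lung fibroblasts, was higher (0.74). Carmn, a non-coding RNA that works with myocardin in vascular smooth muscle, was at 843, 816 and 1214 in PASMC and 233, 329 and 271 in total_SMC (log2 difference -1.77, SE 0.18, adjusted p = 1.67e-05). On the other 4 scalings the calls of lower members rose to between 5 and 8 for the thin filament, 8 and 10 for myosin, 22 and 24 for dense bodies, 9 and 10 for the dystrophin complex and 12 and 13 for these factors.

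Serum response factor binds the CArG box, and the promoters of the muscle genes show where these letters occur. RefSeq promoter windows of GRCm38.p6, from 250 bases before to 50 bases after a gene's start, were matched by symbol to 11075 tested genes. A CArG box is a run of A or T bases between a pair of C and a pair of G, a pattern that a search of either strand finds at the same places. It was found in 2.93% of the 1261 genes called lower that had a window, in 1.31% of 1830 called higher and in 1.63% of all 11075. Among tested genes of the muscle lists, 120 had a window and 14 of those held a box: 8 of the 14 were called lower, against 49 of the 106 without a box. These shares are a description, and a match is not a binding site. The windows below show lower genes of striated muscle first, then some of smooth muscle and the Z-line, and last Actc1, which was not called, each with the box in capitals. They run 5′ to 3′ on the strand of the gene and end before its start or earlier.
Acta1 (chr8:123894776-123894918, minus strand): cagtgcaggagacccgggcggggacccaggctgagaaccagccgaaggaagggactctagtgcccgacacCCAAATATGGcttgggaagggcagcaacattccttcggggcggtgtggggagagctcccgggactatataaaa
Myl3 (chr9:110763523-110763672, plus strand): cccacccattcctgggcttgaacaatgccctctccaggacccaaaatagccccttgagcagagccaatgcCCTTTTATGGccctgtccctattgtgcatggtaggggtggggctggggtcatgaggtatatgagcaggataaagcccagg
Myl7 (chr11:5898783-5898913, minus strand): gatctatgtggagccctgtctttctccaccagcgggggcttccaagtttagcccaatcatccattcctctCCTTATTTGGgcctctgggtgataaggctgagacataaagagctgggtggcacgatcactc
Ldb3 (chr14:34588682-34588786, minus strand): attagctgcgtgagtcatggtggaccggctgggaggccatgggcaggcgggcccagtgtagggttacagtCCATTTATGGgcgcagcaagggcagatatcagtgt
Myl6 (chr10:128493010-128493129, minus strand): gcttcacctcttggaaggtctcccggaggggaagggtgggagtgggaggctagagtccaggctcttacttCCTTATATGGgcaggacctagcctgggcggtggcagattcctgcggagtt
Vcl (chr14:20929148-20929250, plus strand): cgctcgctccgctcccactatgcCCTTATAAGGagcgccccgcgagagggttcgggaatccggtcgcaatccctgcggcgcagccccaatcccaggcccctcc
Actc1 (chr2:114052876-114052992, minus strand): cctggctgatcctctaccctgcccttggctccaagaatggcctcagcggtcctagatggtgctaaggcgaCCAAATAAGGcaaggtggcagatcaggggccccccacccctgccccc
The log2 differences of these genes were -5.61 for Acta1, -2.76 for Myl3 and -2.04 for Myl7, light chains of cardiac myosin, -1.15 for Ldb3, -0.41 for Myl6, the essential light chain of smooth muscle myosin, -0.48 for Vcl, which anchors actin at adhesions, and -0.11 for Actc1. Dmd and Fhl2 of these lists also held a box and were called lower, and their windows are not shown. Besides Actc1, the genes Actg1, Cnn2, Fermt2, Fhl1 and Myl9 of these lists held a box and were not called.

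Most tested genes of striated muscle were lower in total_SMC, the group that is described as including venous cells. In the cardiac muscle list, 0 of 29 tested members were called higher and 22 lower, with a median log2 difference of -1.81. Myh6, the heavy chain of atrial myosin (ENSMUSG00000040752, mm39 chromosome 14, 55179378 to 55204384), was at 232, 386 and 403 in PASMC and 36, 37 and 42 in total_SMC (log2 difference -3.08, SE 0.24, adjusted p = 1.94e-06). Tnni3, cardiac troponin I, was at 135, 124 and 207 in PASMC and 23, 26 and 21 in total_SMC (log2 difference -2.65, SE 0.28, adjusted p = 1.9e-05). Tnnt2, cardiac troponin T, was at 837, 888 and 951 in PASMC and 369, 321 and 415 in total_SMC (log2 difference -1.28, SE 0.13, adjusted p = 1.64e-05). No total_SMC library reached the lowest PASMC library in any of these 3 defining markers. Actc1, cardiac actin, stood apart from its list: its values of 2603, 2319 and 2588 in PASMC and 2211, 2189 and 2577 in total_SMC overlap (log2 difference -0.11, SE 0.098, adjusted p = 0.467). Skeletal muscle genes gave 0 higher and 8 lower of 12 tested (median -2.41). Acta1, skeletal actin and the largest fall among the named genes, was at 166, 199 and 755 in PASMC and 2, 7 and 8 in total_SMC (log2 difference -5.61, SE 0.57, adjusted p = 1.98e-05), and its log2 difference ran from -6.14 to -4.86 over the alternative analyses. Cartilage genes gave 0 higher and 5 lower of 10 tested (median -1.24), led by Col10a1, a collagen of mature cartilage, at 32, 136 and 132 in PASMC and 3, 1 and 1 in total_SMC (log2 difference -5.07, SE 0.59, adjusted p = 5e-05).

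Among the genes of any kind with the largest fall, PASMC replicate 3 was often the highest PASMC library. Of the 56 genes called at least 8-fold lower in total_SMC, 31 had their highest value in that library, and in 12 it was at least 2-fold above both other PASMC libraries. Acta1 and Cdh15, the cadherin of muscle precursors (36, 71 and 269 in PASMC), are examples. The cardiac gene Nkx2-5, chosen after its values were seen, was listed at 0, 0 and 11 in PASMC. When any 1 library was left out, between 20 and 22 cardiac genes were called lower. With a filter of at least 50, which tests fewer genes, 11 cardiac, 3 skeletal muscle and 1 cartilage gene were called lower. Over the whole table, the genes called lower numbered 1580 without PASMC replicate 3, 1526 without replicate 1 and 1455 without replicate 2. The defining markers Myh6, Tnni3 and Tnnt2 showed no overlap between the groups in any library. Summed over the list, cardiac genes were at 1123 ± 102 in PASMC and 603.1 ± 34.7 in total_SMC in CPM of the table (mean ± SD, n = 3 per group).

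**Figure D3:**
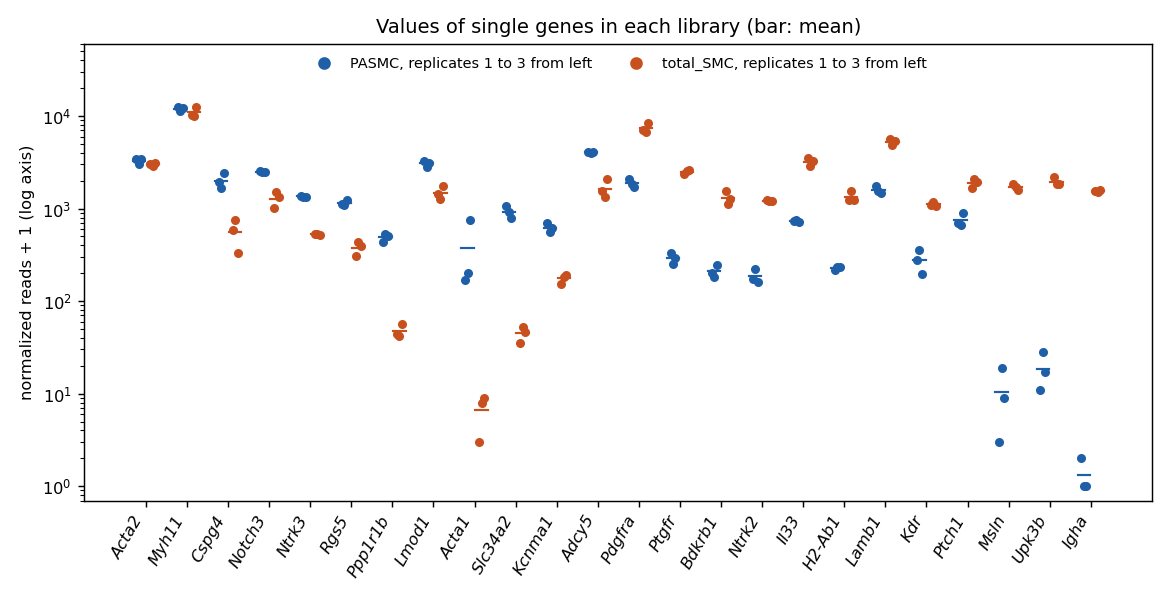
Values of 24 genes in each of the 6 libraries, as normalized reads plus 1 on a log axis; the dots of a group run from replicate 1 to 3 and the bar is the mean of 3. Acta2 and Myh11 are at similar heights in both groups, Acta1 shows the high PASMC replicate 3, and Msln, Upk3b and Igha are near the floor in PASMC only.

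Genes of nitric oxide and cyclic nucleotide signalling were called lower more often than higher. Their list holds phosphodiesterases, which break these messengers down, beside the enzymes that make them. For nitric oxide and cyclic nucleotides, 5 of 36 tested members were called higher and 19 lower, with a median log2 difference of -0.39. Adcy5, which makes cyclic AMP (ENSMUSG00000022840, mm39 chromosome 16, 34975247 to 35126108), was at 4084, 4006 and 4109 in PASMC and 1530, 1328 and 2068 in total_SMC (log2 difference -1.33, SE 0.14, adjusted p = 2.12e-05). Gucy1b1, the beta subunit of the nitric oxide receptor guanylate cyclase, was at 2120, 2106 and 1787 in PASMC and 893, 1163 and 1191 in total_SMC (log2 difference -0.90, SE 0.13, adjusted p = 0.00019). Both stood below the PASMC range in each total_SMC library. Downstream, Irag1, the target of cyclic GMP kinase that restrains calcium release, was lower (log2 difference -1.05), as was Rgs2, a brake on Gq-coupled receptors (-1.14). Pde9a, a cyclic GMP phosphodiesterase, was higher, at 462, 399 and 393 in PASMC and 1144, 903 and 1032 in total_SMC (log2 difference 1.29, SE 0.13, adjusted p = 1.36e-05). Also higher were the phosphodiesterase Pde3b (log2 difference 1.06) and the endothelial synthase Nos3 (0.79), which moved in the same direction as the endothelial markers given below.

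Potassium and calcium handling changed in both directions. Among potassium channels, 9 of 31 tested members were called higher and 10 lower, with a median log2 difference of -0.34. Kcnma1, the pore of the large-conductance calcium-activated channel, was at 693, 562 and 609 in PASMC and 153, 182 and 191 in total_SMC (log2 difference -1.82, SE 0.15, adjusted p = 2.85e-06). Its smooth muscle beta subunit Kcnmb1 was at 2565, 2295 and 2352 in PASMC and 1139, 979 and 1200 in total_SMC (log2 difference -1.12, SE 0.1, adjusted p = 7.41e-06). Both subunits of that hyperpolarizing channel were therefore lower in every total_SMC library. Kcnt2, a sodium-activated channel, was among the higher ones (2.26), together with the ATP-sensitive pair named above. For calcium entry and stores, 10 of 39 tested members were called higher and 14 lower, with a median log2 difference of -0.23. Jph2, which holds the sarcoplasmic reticulum close to the cell membrane, was at 2651, 1923 and 2926 in PASMC and 929, 990 and 804 in total_SMC (log2 difference -1.44, SE 0.15, adjusted p = 2e-05). Casq1, a calcium buffer of the reticulum, was at 961, 827 and 879 in PASMC and 244, 143 and 333 in total_SMC (log2 difference -1.96, SE 0.24, adjusted p = 8.27e-05). Neither overlapped between the groups. Ryr2, a calcium release channel, and Sln, an inhibitor of the calcium pump, were lower too (log2 differences -1.81 and -3.16), beside the cardiac genes above. Higher in total_SMC were the mechanically gated channel Piezo2 (2.22) and the stretch-sensitive Trpv4, at 41, 32 and 37 in PASMC and 136, 114 and 144 in total_SMC (log2 difference 1.81, SE 0.24, adjusted p = 0.000117).

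**Figure D4:**
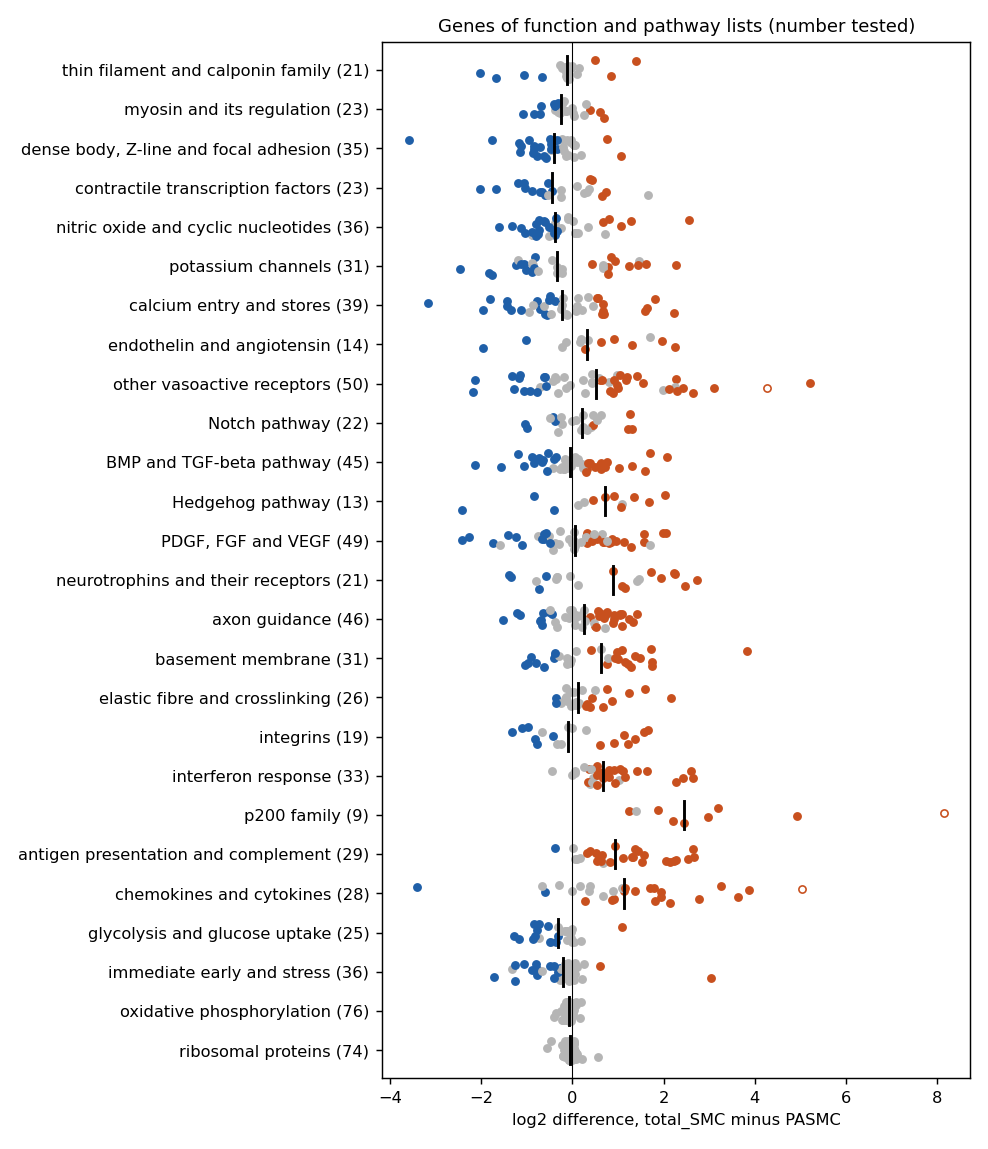
Each dot is 1 tested gene of a function or pathway list, placed by its log2 difference between total_SMC and PASMC, with colours, open dots and median bars as in the plot of marker lists. Nitric oxide, dense body and glycolysis genes lie mostly to the left of 0, interferon, p200, antigen presentation and chemokine genes to the right, and ribosomal and respiratory chain genes cluster at 0.

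Genes of vasoactive signals were called in both directions. In the endothelin and angiotensin list, 6 of 14 tested members were called higher and 2 lower, with a median log2 difference of 0.31. Ednra, the constrictor receptor of smooth muscle, was at 3583, 3899 and 3028 in PASMC and 2987, 2800 and 3219 in total_SMC (log2 difference -0.22, SE 0.11, adjusted p = 0.154), and it passed the test on 3 of 4 other scalings (log2 differences of -0.29 to -0.27). Ednrb, the second endothelin receptor (ENSMUSG00000022122, mm39 chromosome 14, 104052061 to 104081838), was lower without overlap, at 3592, 4091 and 2406 in PASMC and 1595, 1535 and 1724 in total_SMC (log2 difference -1.02, SE 0.16, adjusted p = 0.000512), although other markers of capillary endothelium were mostly higher. Agt, the precursor of angiotensin, was at 723, 888 and 742 in PASMC and 197, 212 and 194 in total_SMC (log2 difference -1.95, SE 0.14, adjusted p = 8.24e-07). Ace, which makes angiotensin II, was at 2008, 2057 and 2079 in PASMC and 3893, 3549 and 4056 in total_SMC (log2 difference 0.90, SE 0.088, adjusted p = 1.16e-05). The precursor was thus lower and the enzyme higher in every total_SMC library. The number of higher calls in this small list dropped from 6 to 3 without total_SMC replicate 3.

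In the list of other vasoactive receptors and enzymes, 20 of 50 tested members were called higher and 12 lower, with a median log2 difference of 0.51. Ptgfr, the prostaglandin F receptor (ENSMUSG00000028036, mm39 chromosome 3, 151502139 to 151543267), was at 331, 252 and 292 in PASMC and 2381, 2562 and 2584 in total_SMC (log2 difference 3.11, SE 0.12, adjusted p = 1.42e-08). Ptgs2, the inducible cyclooxygenase, was at 236, 131 and 140 in PASMC and 1227, 738 and 581 in total_SMC (log2 difference 2.30, SE 0.27, adjusted p = 6.44e-05). Every total_SMC library exceeded every PASMC library for both genes. Ptgis, which makes prostacyclin, was at 2416, 2180 and 2624 in PASMC and 2484, 2028 and 2003 in total_SMC and was not called (log2 difference -0.15, SE 0.11, adjusted p = 0.355). Bdkrb1, the inducible bradykinin receptor, was at 201, 183 and 244 in PASMC and 1528, 1130 and 1283 in total_SMC (log2 difference 2.64, SE 0.15, adjusted p = 2.21e-07). Avpr1a, a vasopressin receptor, was close to absent in PASMC and present in total_SMC, at 1, 0 and 9 in PASMC and 92, 97 and 111 in total_SMC (adjusted p = 0.000148). Adra1d and Htr1b were lower. The alpha-1D adrenergic receptor Adra1d was at 290, 491 and 499 in PASMC and 90, 79 and 115 in total_SMC (log2 difference -2.14, SE 0.23, adjusted p = 2.94e-05). The serotonin receptor Htr1b was at 158, 97 and 100 in PASMC and 14, 23 and 46 in total_SMC (log2 difference -2.18, SE 0.39, adjusted p = 0.0013). The muscarinic receptor Chrm2, taken as a marker of airway muscle, was at 398, 385 and 199 in PASMC and 240, 324 and 351 in total_SMC and did not differ beyond the spread of its libraries (log2 difference -0.053, SE 0.25, adjusted p = 0.91). Its mean in the bronchial libraries of the series was 164.3 (SD 54.6).

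Signalling pathways of the vessel wall showed no common direction within Notch or BMP. Notch pathway genes gave 4 higher and 4 lower of 22 tested (median 0.21). Hey2, an arterial target of Notch, was at 660, 555 and 666 in PASMC and 272, 326 and 312 in total_SMC (log2 difference -1.04, SE 0.14, adjusted p = 0.000107), like Notch3. Dll4, an endothelial ligand, was at 195, 241 and 216 in PASMC and 486, 582 and 465 in total_SMC (log2 difference 1.23, SE 0.15, adjusted p = 6.44e-05). Notch4, an endothelial receptor, was at 170, 173 and 189 in PASMC and 373, 479 and 429 in total_SMC (log2 difference 1.26, SE 0.15, adjusted p = 6.29e-05). These 2 genes were higher in every total_SMC library, whereas Hey2 was lower. Dtx4, a regulator of Notch trafficking, was at 964, 1089 and 1091 in PASMC and 2799, 2326 and 2614 in total_SMC. For BMP and TGF-beta, 15 higher and 14 lower of 45 tested (median -0.05). Of the ligands, Bmp7 was higher (log2 difference 1.69) and the activin subunit Inhbb lower (-1.20). The extracellular traps differed among themselves. Fst, which binds activin, was at 147, 133 and 152 in PASMC and 607, 620 and 601 in total_SMC (log2 difference 2.08, SE 0.14, adjusted p = 6.63e-07). Chrdl1, which binds BMP ligands, was at 833, 823 and 501 in PASMC and 1903, 2102 and 2329 in total_SMC (log2 difference 1.59, SE 0.17, adjusted p = 3.68e-05). By contrast, the BMP antagonist Nog was at 33, 66 and 56 in PASMC and 5, 14 and 16 in total_SMC (log2 difference -2.14, SE 0.46, adjusted p = 0.00411). The first 2 traps rose and the third fell, each without overlap. Only 7 BMP and TGF-beta genes were called higher without total_SMC replicate 3 and 9 without PASMC replicate 3.

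Several Hedgehog pathway genes were higher in total_SMC. Hedgehog pathway genes gave 7 higher and 3 lower of 13 tested (median 0.71). Ptch1, a receptor that is itself a target of the pathway, was at 690, 667 and 890 in PASMC and 1671, 2085 and 1922 in total_SMC (log2 difference 1.34, SE 0.13, adjusted p = 1.2e-05). All total_SMC libraries were above the PASMC range. Gli1, the transcription factor induced by the pathway, was higher too (1.06), as was the coreceptor Cdon (1.67). Ihh, a ligand, was lower (-2.42), as was the antagonist Hhip given above. Wnt pathway genes gave 14 higher and 8 lower of 44 tested (median 0.12). Rspo1, a Wnt amplifier that is also a mesothelial marker, was at 66, 100 and 99 in PASMC and 789, 635 and 670 in total_SMC (log2 difference 2.99, SE 0.19, adjusted p = 4.05e-07). Sfrp4, a secreted inhibitor, was at 401, 262 and 376 in PASMC and 1359, 1341 and 1273 in total_SMC (log2 difference 1.96, SE 0.15, adjusted p = 2.11e-06).

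Growth factors and nerve-directed signals were called in both directions. PDGF, FGF and VEGF genes gave 16 higher and 11 lower of 49 tested (median 0.06). Fgf10, a growth factor of lung mesenchyme, was at 273, 257 and 244 in PASMC and 845, 762 and 716 in total_SMC (log2 difference 1.58, SE 0.13, adjusted p = 2.47e-06). Hgf, the hepatocyte growth factor of stromal cells, was at 180, 156 and 94 in PASMC and 320, 489 and 456 in total_SMC (log2 difference 1.58, SE 0.24, adjusted p = 0.000462). Both were higher in every total_SMC library. Fgf18, made by myofibroblasts, was lower, at 556, 674 and 592 in PASMC and 255, 233 and 194 in total_SMC (log2 difference -1.42, SE 0.15, adjusted p = 2.05e-05). Neurotrophins and their receptors gave 9 higher and 4 lower of 21 tested (median 0.88). Here Ntrk3 and Ntrk2 moved in opposite directions: Ntrk2, the receptor for brain-derived neurotrophic factor, was at 171, 224 and 161 in PASMC and 1234, 1212 and 1213 in total_SMC (log2 difference 2.73, SE 0.14, adjusted p = 1.31e-07), in contrast to the values of Ntrk3 above. Nrtn, a ligand of the GDNF family, was at 882, 765 and 891 in PASMC and 348, 251 and 386 in total_SMC (log2 difference -1.38, SE 0.16, adjusted p = 4.78e-05). Axon guidance genes gave 19 higher and 9 lower of 46 tested (median 0.26), among them Slit2 (log2 difference 1.42) higher and Plxna4 (-1.21) and Plxnb1 (-1.14) lower. Transcription factors of lung mesenchyme and patterning were called evenly, 11 higher and 11 lower of 40 tested (median 0.09). Foxc1, a factor of the vessel wall, was at 1597, 1739 and 1922 in PASMC and 750, 772 and 964 in total_SMC (log2 difference -1.08, SE 0.12, adjusted p = 3.15e-05). Meox2, a homeobox factor of mesenchyme, was at 539, 538 and 697 in PASMC and 1833, 1985 and 1950 in total_SMC (log2 difference 1.71, SE 0.12, adjusted p = 8.79e-07). Foxc1 was thus lower and Meox2 higher, neither with overlap.

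Matrix genes were called chain by chain. Basement membrane genes gave 15 higher and 8 lower of 31 tested (median 0.63). Laminin chains went both ways. Lamb1 was at 1763, 1562 and 1472 in PASMC and 5588, 4834 and 5347 in total_SMC (log2 difference 1.72, SE 0.099, adjusted p = 2.21e-07). Lama2 was at 1150, 865 and 1011 in PASMC and 2854, 3505 and 3784 in total_SMC (log2 difference 1.74, SE 0.13, adjusted p = 1.59e-06). By contrast, Lama5 was at 905, 875 and 1144 in PASMC and 514, 458 and 501 in total_SMC (log2 difference -0.98, SE 0.13, adjusted p = 0.000116), below the PASMC range in each library. Collagen IV was split as well. The abundant chain Col4a1 gave overlapping values of 8193, 7673 and 8341 in PASMC and 7369, 7849 and 7970 in total_SMC (log2 difference -0.062, SE 0.079, adjusted p = 0.617), Col4a6 was lower (log2 difference -0.91) and Col4a3 higher (1.74). Fibrillar and associated collagens gave 6 higher and 3 lower of 23 tested (median 0.12), and the fibrillar chains Col1a2 (log2 difference 0.13, SE 0.085, adjusted p = 0.291) and Col3a1 (log2 difference 0.12, SE 0.085, adjusted p = 0.322) were not called. For elastic fibres the counts were 10 higher and 2 lower of 26 tested (median 0.12). Among them was Fbn1, the microfibril protein fibrillin 1, at 4333, 3158 and 3693 in PASMC and 8384, 8219 and 9736 in total_SMC (log2 difference 1.24, SE 0.12, adjusted p = 9.83e-06). Higher calls in that list numbered 6 without total_SMC replicate 3.

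Matricellular proteins and proteoglycans gave 10 higher and 6 lower of 37 tested (median 0.01), and the higher calls fell to 6 without total_SMC replicate 2. Has1, which makes hyaluronan, was at 64, 52 and 92 in PASMC and 833, 332 and 506 in total_SMC (log2 difference 2.93, SE 0.31, adjusted p = 2.49e-05). Has2, which makes it too, was at 42, 46 and 48 in PASMC and 232, 311 and 239 in total_SMC (log2 difference 2.49, SE 0.21, adjusted p = 3.21e-06). The total_SMC libraries were above the PASMC range for both. Matrix proteases and inhibitors gave 11 higher and 6 lower of 32 tested (median 0.18), with Mmp19 at 125, 94 and 150 in PASMC and 804, 663 and 648 in total_SMC (log2 difference 2.53, SE 0.18, adjusted p = 1.22e-06). For integrins the counts were 7 higher and 6 lower of 19 tested (median -0.09), and only 3 were called higher without total_SMC replicate 2. Itga9, a receptor for tenascin, was at 6068, 5474 and 5194 in PASMC and 2137, 1989 and 2609 in total_SMC (log2 difference -1.32, SE 0.11, adjusted p = 3.37e-06). The muscle laminin receptor Itga7 was at 3176, 3215 and 3017 in PASMC and 1783, 1166 and 1969 in total_SMC (log2 difference -0.97, SE 0.16, adjusted p = 0.000707). By contrast, Itga11, a collagen receptor of fibroblasts, was at 176, 190 and 153 in PASMC and 460, 431 and 460 in total_SMC (log2 difference 1.38, SE 0.15, adjusted p = 2.36e-05). None of the 3 overlapped between the groups. Cadherins and connexins gave 8 higher and 9 lower of 24 tested (median 0.09), with Cdh11 of mesenchymal cells higher (1.29) and Cdh6 lower (-1.14).

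Markers of the pleural lining were mostly higher in total_SMC. Of the mesothelial list, 20 of 22 tested members were called higher and 0 lower, with a median log2 difference of 2.99, and the median is the same with genes at 0 in PASMC set to their lower bound. Msln, mesothelin (ENSMUSG00000063011, mm39 chromosome 17, 25967587 to 25973352), was at 2, 18 and 8 in PASMC and 1821, 1713 and 1568 in total_SMC (log2 difference 7.73, SE 0.49, adjusted p = 6.63e-07). Upk3b, a uroplakin of mesothelium, was at 10, 27 and 16 in PASMC and 2215, 1827 and 1823 in total_SMC (log2 difference 6.81, SE 0.28, adjusted p = 5.14e-08). Lrrn4, a membrane protein of these cells, was at 20, 44 and 12 in PASMC and 906, 982 and 896 in total_SMC (log2 difference 5.33, SE 0.35, adjusted p = 8.22e-07). PASMC libraries held low values of all 3. Wt1, the transcription factor of mesothelial cells, was at 0, 1 and 7 in PASMC and 41, 41 and 39 in total_SMC (adjusted p = 0.000813), so all 4 defining markers were higher without overlap. Bnc1, a mesothelial zinc finger factor, was listed at 0 in all PASMC libraries and at 236, 245 and 151 in total_SMC, which is at least 75.9-fold higher with 3 reads per library as the floor. The keratin Krt18, in contrast, gave 390, 467 and 613 in PASMC and 398, 544 and 438 in total_SMC and was not called (log2 difference -0.078, SE 0.18, adjusted p = 0.795). Summed over the list, mesothelial genes were at 836 ± 50.4 in PASMC and 2881 ± 106 in total_SMC in CPM.

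Fibroblast markers were higher in the adventitial set and mixed in the alveolar set. For adventitial fibroblasts, 14 of 21 tested members were called higher and 0 lower, with a median log2 difference of 0.58. Scara5, a ferritin receptor of these cells, was at 2061, 2086 and 2171 in PASMC and 5354, 5661 and 6450 in total_SMC (log2 difference 1.46, SE 0.092, adjusted p = 4.05e-07). Col14a1, a defining marker, was at 4282, 3269 and 3649 in PASMC and 8421, 8796 and 9777 in total_SMC (log2 difference 1.27, SE 0.11, adjusted p = 3.21e-06). Dpp4, a surface peptidase, was at 112, 87 and 40 in PASMC and 591, 716 and 614 in total_SMC (log2 difference 3.11, SE 0.3, adjusted p = 1.5e-05). All 3 were higher in every total_SMC library. Dcn, the proteoglycan decorin and another defining marker, was at 3208, 2941 and 3340 in PASMC and 3474, 3518 and 4009 in total_SMC and was not called (log2 difference 0.21, SE 0.093, adjusted p = 0.112). Alveolar fibroblast markers gave 8 higher and 3 lower of 19 tested (median 0.10). Of the defining markers, Tcf21 (log2 difference 0.74) and Wnt2 (1.275) were called higher and Ces1d (0.10) was not called. The call of Wnt2 was lost in the fit of all 9 libraries. Fgfr4 was lower, at 88, 145 and 454 in PASMC and 32, 43 and 35 in total_SMC, with its highest value in PASMC replicate 3. The summed adventitial level was 7329 ± 516 in PASMC and 9593 ± 436 in total_SMC in CPM. These markers and the mesothelial ones move with the matrix, prostanoid and growth factor genes described above, and their part in those results was not tested.

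Endothelial markers were higher in total_SMC without being absent from PASMC. In the general endothelial list, 19 of 25 tested members were called higher and 0 lower, with a median log2 difference of 1.05. Cdh5, the endothelial cadherin, was at 171, 209 and 173 in PASMC and 420, 538 and 396 in total_SMC (log2 difference 1.28, SE 0.17, adjusted p = 9.97e-05). Kdr, the main VEGF receptor, was at 278, 359 and 195 in PASMC and 1093, 1190 and 1053 in total_SMC (log2 difference 2.04, SE 0.19, adjusted p = 8.97e-06). Both were at least 171 in any PASMC library and higher in every total_SMC library. Pecam1 was at 1405, 1890 and 1622 in PASMC and 2124, 2387 and 2050 in total_SMC (log2 difference 0.42, SE 0.12, adjusted p = 0.0166), a call that was lost under 5 alternatives. Vwf, which forms platelet-binding strings, gave overlapping values of 2742, 3172 and 3205 in PASMC and 2525, 3528 and 2604 in total_SMC (log2 difference -0.088, SE 0.13, adjusted p = 0.667). Capillary markers gave 11 higher and 2 lower of 15 tested (median 0.80), among them Car4, at 61, 23 and 28 in PASMC and 326, 325 and 246 in total_SMC (log2 difference 3.08, SE 0.32, adjusted p = 2.36e-05). Arterial endothelial markers gave 9 higher and 1 lower of 15 tested (median 0.54) and venous ones 4 higher and 1 lower of 13 tested (median 0.22), of which only 2 were called higher without PASMC replicate 1. Slc6a2, the noradrenaline transporter that marks pulmonary vein endothelium, was at 340, 276 and 240 in PASMC and 993, 829 and 805 in total_SMC (log2 difference 1.62, SE 0.15, adjusted p = 8.03e-06), but Selp, another venous marker, was not called (log2 difference 0.82, SE 0.41, adjusted p = 0.164). Lymphatic markers gave 7 higher and 0 lower of 10 tested (median 2.10). Mmrn1, a matrix protein of lymphatic vessels, was at 17, 35 and 26 in PASMC and 462, 458 and 393 in total_SMC (log2 difference 4.07, SE 0.26, adjusted p = 4.05e-07). Prox1, the factor that defines lymphatic identity, overlapped at 27, 8 and 67 in PASMC and 10, 46 and 20 in total_SMC (log2 difference -0.22, SE 0.69, adjusted p = 0.86). The summed endothelial level was 2147 ± 246 in PASMC and 3409 ± 439 in total_SMC in CPM, and its part in the Notch, nitric oxide synthase and VEGF receptor results was not tested.

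Epithelial RNA went in opposite directions by cell type. Among alveolar type 2 genes, 0 of 16 tested members were called higher and 12 lower, with a median log2 difference of -2.55. Slc34a2, the phosphate transporter of these cells (ENSMUSG00000029188, mm39 chromosome 5, 53195423 to 53229006), was at 1062, 907 and 786 in PASMC and 34, 52 and 45 in total_SMC (log2 difference -4.37, SE 0.2, adjusted p = 5.42e-08). Sftpb, surfactant protein B, was at 427, 379 and 525 in PASMC and 33, 46 and 31 in total_SMC (log2 difference -3.57, SE 0.22, adjusted p = 3.47e-07). Napsa, the protease that processes surfactant proteins, was at 261, 240 and 255 in PASMC and 15, 30 and 15 in total_SMC (log2 difference -3.66, SE 0.29, adjusted p = 2.08e-06), so total_SMC held a small part of the PASMC level for these genes. Sftpc, surfactant protein C, was lower too, at 1462, 1340 and 1493 in PASMC and 874, 775 and 841 in total_SMC (log2 difference -0.79, SE 0.1, adjusted p = 0.000101). It had 1.17 implied reads per exonic base, against 0.131 for Sftpb and 0.055 for Napsa. At that density counts may stop rising with expression, so its difference may be understated. Alveolar type 1 genes gave 8 higher and 0 lower of 15 tested (median 0.95), with Ager, the receptor that marks these flat cells, at 510, 601 and 568 in PASMC and 1095, 1403 and 1028 in total_SMC (log2 difference 1.06, SE 0.13, adjusted p = 8.27e-05). Airway epithelial genes gave 5 higher and 3 lower of 19 tested (median -0.17). Higher calls in that list numbered 2 without PASMC replicate 1 and 3 without total_SMC replicate 2, and Scgb1a1, the club cell secretory protein, overlapped (log2 difference -0.13, SE 0.12, adjusted p = 0.476). Scgb1a1 had 1.83 implied reads per exonic base, so a difference may be hidden there. Bpifa1, a secreted airway protein, was at 14, 3 and 47 in PASMC and 458, 1053 and 1518 in total_SMC, and its call was lost without PASMC replicate 1 (adjusted p = 0.0531). The summed level of the type 2 list was 1203 ± 29.7 in PASMC and 451.7 ± 25.9 in total_SMC in CPM. Nerve and Schwann genes gave 2 higher and 4 lower of 11 tested (median -0.51), with the adhesion molecule Ncam1 at 2110, 1972 and 2545 in PASMC and 524, 410 and 507 in total_SMC (log2 difference -2.20, SE 0.13, adjusted p = 3.02e-07). The sodium channel Scn7a was at 1029, 836 and 664 in PASMC and 3482, 4391 and 4402 in total_SMC (log2 difference 2.29, SE 0.15, adjusted p = 8.24e-07). These 2 nerve genes moved in opposite directions, and neither overlapped.

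**Figure D5:**
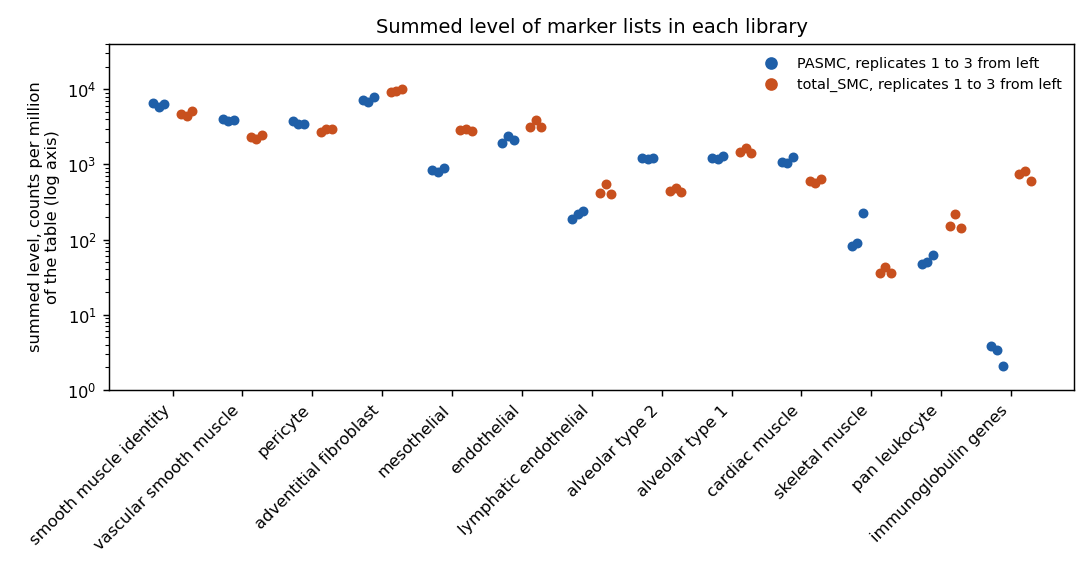
Summed level of marker lists in each library, in CPM of the table on a log axis; dots of a group run from replicate 1 to 3. Alveolar type 2, cardiac and skeletal muscle sums are higher in all PASMC libraries, mesothelial, endothelial and lymphatic sums are higher in all total_SMC libraries, and the immunoglobulin sum is separated by the widest gap.

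Immunoglobulin RNA was found almost only in total_SMC. The table holds 112 immunoglobulin constant and variable genes, and their summed values were 34, 29 and 18 in PASMC and 6844, 7172 and 5640 in total_SMC. All 48 tested ones were called higher, and 106 of the 112 were listed at 0 in every PASMC library. Igha, the heavy chain of immunoglobulin A (ENSMUSG00000095079, mm39 chromosome 12, 113218450 to 113223856), was at 1, 0 and 0 in PASMC and 1555, 1523 and 1601 in total_SMC (adjusted p = 3.41e-09). The light chain Igkc was at 1, 0 and 0 in PASMC and 867, 858 and 920 in total_SMC (adjusted p = 1.13e-08). Jchain, which joins secreted antibodies, was listed at 0 in all PASMC libraries and at 965, 1163 and 926 in total_SMC, at least 367-fold higher with 3 reads per library as the floor. In the bronchial libraries of the series (BSMC), which are in no comparison here, the immunoglobulin sum was 7896, 5322 and 6882.

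The white blood cell markers Ptprc, Cd79a and Cd3e were at 11 or below, while other genes of the leukocyte lists were higher in level. Ptprc, the surface phosphatase of all white blood cells, was listed at 0, 0 and 0 in PASMC and 0, 4 and 3 in total_SMC. Cd79a, part of the B cell receptor, was at 0, 2 and 3 and at 9, 11 and 6, and Cd3e of T cells was at 0 in all libraries but total_SMC replicate 1, where it was at 1. Cd74, the invariant chain of class II MHC on the lymphocyte list, was at 646, 752 and 809 in PASMC and 1740, 1923 and 1782 in total_SMC (log2 difference 1.31, SE 0.11, adjusted p = 3.35e-06). Arhgdib, on the pan-leukocyte list, was at 126, 142 and 196 in PASMC and 516, 468 and 467 in total_SMC (log2 difference 1.66, SE 0.18, adjusted p = 2.36e-05). Pan-leukocyte genes gave 7 higher and 0 lower of 9 tested (median 1.84), lymphocyte genes 5 higher and 0 lower of 7 tested (median 3.42) and myeloid genes 5 higher and 2 lower of 9 tested (median 1.77), with 3 myeloid genes higher without total_SMC replicate 2. The lymphocyte genes called higher include Jchain, Igkc and Ighm, which are counted with the antibody genes above. The filter on low values was passed by 9 of 14 pan-leukocyte, 7 of 24 lymphocyte and 9 of 24 myeloid genes, so the counts cover only the detected ones. Of the defining myeloid markers, Csf1r was higher, at 2, 1 and 9 in PASMC and 47, 48 and 40 in total_SMC (log2 difference 3.55, SE 0.58, adjusted p = 0.000601). S100a8 (3.06) and Chil3 (1.77) were called higher at low values, and C1qa was not tested. Their calls were lost under 1 alternative for S100a8 and 8 for Chil3. Coro1a, a defining pan-leukocyte marker, was called higher, at 5, 5 and 8 in PASMC and 27, 30 and 26 in total_SMC. Lyz2, lysozyme of myeloid and alveolar type 2 cells, was lower, at 1843, 1670 and 1689 in PASMC and 333, 485 and 395 in total_SMC (log2 difference -2.11, SE 0.14, adjusted p = 5.17e-07). After their values were seen, genes of plasma cells and their B cell lineage were also looked up. The factors Prdm1 and Irf4 were called higher, at 15, 0 and 5 against 40, 41 and 21, and at 3, 13 and 1 against 33, 41 and 27. Xbp1 was called higher too, at 2286, 2342 and 2581 in PASMC and 3026, 2702 and 3170 in total_SMC (log2 difference 0.30, SE 0.096, adjusted p = 0.0317). Pou2af1 was not tested, at 0 in all PASMC libraries and at 9, 16 and 6 in total_SMC. The surface marker Sdc1 was at 1021, 919 and 911 in PASMC and 783, 817 and 775 in total_SMC and was not called, and Mzb1 was at 0 in all PASMC libraries and at 0, 1 and 1 in total_SMC. Erythroid genes gave 4 higher and 0 lower of 6 tested (median 2.33) and megakaryocyte genes 1 higher and 1 lower of 8 tested (median 0.95).

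Many interferon-induced genes were higher in total_SMC. For the interferon response, 23 of 33 tested members were called higher and 0 lower, with a median log2 difference of 0.66. Between 17 and 20 of them were called on other scalings. Zbp1, a sensor of foreign nucleic acid, was at 25, 22 and 20 in PASMC and 105, 158 and 114 in total_SMC (log2 difference 2.42, SE 0.27, adjusted p = 3.52e-05). Rsad2, which blocks viral replication, was at 6, 12 and 8 in PASMC and 46, 55 and 74 in total_SMC (log2 difference 2.64, SE 0.39, adjusted p = 0.000264). No total_SMC value of either fell in the PASMC range. Larger differences appeared in the p200 family, nucleic acid sensors whose expression varies between inbred mouse strains, with 8 higher and 0 lower of 9 tested (median 2.44). Ifi202b was listed at 0 in all PASMC libraries and at 295, 198 and 378 in total_SMC, at least 105-fold higher with that floor, and Ifi205 was at 67, 45 and 44 in PASMC and 416, 572 and 455 in total_SMC (log2 difference 3.20, SE 0.22, adjusted p = 6.8e-07). Its neighbour Ifi204 was at 10, 3 and 5 in PASMC and 179, 218 and 182 in total_SMC (log2 difference 4.91, SE 0.38, adjusted p = 1.85e-06). The labels give no strain for either line, so a difference of background cannot be told apart from one of cell population.

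Antigen presentation and complement genes gave 23 higher and 1 lower of 29 tested (median 0.93). H2-Ab1, a chain of class II MHC, was at 217, 232 and 233 in PASMC and 1233, 1538 and 1232 in total_SMC (log2 difference 2.54, SE 0.13, adjusted p = 1.09e-07). H2-Eb1 was at 86, 71 and 90 in PASMC and 415, 785 and 417 in total_SMC, highest in replicate 2 (log2 difference 2.64, SE 0.24, adjusted p = 8.07e-06). Cfb, complement factor B, was at 20, 16 and 32 in PASMC and 142, 139 and 151 in total_SMC (log2 difference 2.67, SE 0.29, adjusted p = 2.75e-05). PASMC libraries were below every total_SMC library for these 3 genes. Chemokines and cytokines gave 17 higher and 2 lower of 28 tested (median 1.12). Il33, an alarmin of stromal cells, was at 727, 748 and 716 in PASMC and 3496, 2900 and 3253 in total_SMC (log2 difference 2.13, SE 0.099, adjusted p = 6.24e-08). Ccl8, a chemokine that attracts monocytes, was at 31, 29 and 31 in PASMC and 288, 322 and 286 in total_SMC (log2 difference 3.26, SE 0.2, adjusted p = 3.8e-07). Both were higher in every total_SMC library. Cx3cl1, the membrane-bound chemokine fractalkine, was the reverse, at 1720, 1559 and 1397 in PASMC and 1164, 907 and 1027 in total_SMC (log2 difference -0.60, SE 0.12, adjusted p = 0.0024).

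Among the genes with the largest rise, total_SMC replicate 2 was often the highest library. Of the 235 genes called at least 8-fold higher, 148 had their highest value in that library, and in 50 it was at least 2-fold above both other total_SMC libraries. Without it, 2065 genes were called higher in place of 2493. That drop was not particular to it, as leaving out total_SMC replicate 1 or 3 gave 2081 and 1770. Krt17, a keratin of basal epithelium, was called higher. No PASMC library held it, and in total_SMC it was at 130, 385 and 173. Fcgbp, a mucus protein, was at 7, 0 and 5 in PASMC and 236, 800 and 392 in total_SMC, and Alox12e, an epidermal lipoxygenase, at 0 in PASMC and 121, 305 and 108 in total_SMC. Csn2, the milk protein beta casein, was at 0 in PASMC and 93, 239 and 83 in total_SMC. All 4 were nevertheless present in replicates 1 and 3 of total_SMC and at most at 7 in PASMC.

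Genes of ribosomes and respiration gave no call, and genes of sugar use were often lower. None of the 74 tested ribosomal protein genes and none of the 76 tested genes of oxidative phosphorylation was called by limma, and at an unadjusted p under 0.05 there were 1 and 2, all lower. On 3 of 4 other scalings 2 respiratory genes were called lower. Glycolysis and glucose uptake genes gave 1 higher and 11 lower of 25 tested (median -0.31), without Aldoa, whose symbol is shared by 2 genes of the table. Slc2a4, the insulin-regulated glucose transporter of muscle, was at 1167, 1042 and 941 in PASMC and 381, 402 and 514 in total_SMC (log2 difference -1.29, SE 0.14, adjusted p = 2.67e-05). Eno3, the muscle enolase, was at 234, 294 and 300 in PASMC and 173, 152 and 128 in total_SMC (log2 difference -0.87, SE 0.18, adjusted p = 0.00318). Slc16a1, a lactate transporter, was the 1 higher member (1.08). Lipid uptake and storage genes gave 7 higher and 10 lower of 31 tested (median -0.14), with the lipid droplet protein Plin4 at 1037, 964 and 1020 in PASMC and 282, 233 and 335 in total_SMC (log2 difference -1.84, SE 0.14, adjusted p = 1.86e-06). Proliferation genes gave 1 higher and 0 lower of 19 tested (median 0.02).

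Immediate early and stress genes gave 2 higher and 13 lower of 36 tested (median -0.21). Atf3, a stress-induced transcription factor, was at 2057, 1209 and 1400 in PASMC and 412, 435 and 536 in total_SMC (log2 difference -1.72, SE 0.18, adjusted p = 2.42e-05). Gadd45b, a stress sensor, was at 1832, 1950 and 2137 in PASMC and 763, 899 and 808 in total_SMC (log2 difference -1.26, SE 0.11, adjusted p = 3.21e-06). Both were lower without overlap, but Egr1 (log2 difference -0.089, SE 0.085, adjusted p = 0.495) and Jun (log2 difference 0.036, SE 0.093, adjusted p = 0.82) were not called. Egr1 was called lower after quantile normalization (adjusted p = 0.0423). Circadian genes gave 2 higher and 6 lower of 19 tested (median 0.05), and Per2, a repressor of the clock, was at 479, 411 and 313 in PASMC and 139, 127 and 189 in total_SMC (log2 difference -1.40, SE 0.2, adjusted p = 0.000252). Long non-coding RNAs of the fixed list gave 2 higher and 3 lower of 19 tested (median -0.04). Over all 968 tested long non-coding RNAs, 72 were called higher and 174 lower, while among protein coding genes 17.6% were higher and 11.4% lower.

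At the loci named in the mouse lines, neighbouring genes and the reporter locus gave 2 higher and 3 lower of 12 tested (median -0.09). Gt(ROSA)26Sor, the non-coding gene at Rosa26, was at 600, 832 and 794 in PASMC and 95, 147 and 207 in total_SMC (log2 difference -2.36, SE 0.24, adjusted p = 2.36e-05), and the reporter in the PASMC line is named for that locus. Stambpl1, a neighbour of Acta2, was at 175, 194 and 233 in PASMC and 603, 543 and 561 in total_SMC (log2 difference 1.51, SE 0.15, adjusted p = 1.26e-05). The 4 tested Y-linked genes of the sex-linked list were expressed in all 6 libraries, and none was called by limma (1 at an unadjusted p under 0.05). By chromosome, the called share among the autosomes was highest on chromosome 1, at 33.9%.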

How the data were processed

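The deposited table gives 1 value per gene and library, recorded here with the unit score. As its values show, the authors multiplied read counts by 1 factor per library and rounded them. A count model was therefore not used. Spacing of the whole numbers gave back these factors, and dividing by them gave implied reads. The submitters' processing notes name the tools Trimmomatic (0.39), STAR (2.7.11a), Picard (3.1.1), featureCounts (2.0.4) and DESeq2 (1.36.0), without roles. They also name mm39. How duplicate reads were treated is not given in the sources used here. Per the labels' protocols, SMART-Seq v4 libraries were made from no more than 10 ng of RNA. Groups and replicate numbers come from the labels. Whether replicates are separate animals is not among them, and p-values then reflect only how much these samples vary, which may be technical.

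A gene was tested where 3 or more of the 6 libraries reached 10. The test was limma 3.58.1 (R 4.3.3) on log2 of value plus 1, with group means and eBayes with its trend and robust options. Benjamini-Hochberg adjustment covered all 14730 genes. The fit was also run on simulated counts that shared a single dispersion across genes. That setting is simpler than these data, so it does not check the calls above. GENCODE vM21 supplied exon lengths for 96.7% of genes, matched by identifier, and the table supplied coordinates. The 64 gene lists and their members were chosen with earlier results of these data known. Their counts are descriptions, and no list was tested. The genes named are part of 488 taken by rule. The rule takes Acta2, Myh11, Cspg4 and Chrm2, and the defining markers of cell type lists. It adds the 15 largest calls per direction without overlap whose higher group averaged 100 or more, leaving out predicted genes and pseudogenes. From each list it takes up to 4 called members per direction averaging 50 or more, and the 2 most abundant uncalled ones. Nkx2-5, Prdm1, Irf4, Xbp1, Pou2af1, Sdc1, Mzb1 and the immunoglobulin total were looked up after values were seen. Myl3, Myl7, Myl6 and Vcl are shown for the box in their promoters. Depth limits low values: for a gene at 0 in a group, the floor of 3 reads per library covers counting error only. CPM values are shares of a library's table total. Tables and plots used Python 3.11.15, numpy 2.4.6, pandas 2.3.3 and matplotlib 3.10.9. In all, 18 alternatives were run.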

Additional observations from a re-analysis of the deposited data

How the results depend on the processing

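Of the 4231 calls, 28.7% of genes, the fit that shared its spread with all 9 libraries of the series kept 2433 calls, 1384 higher and 1049 lower, and with a filter of at least 50 the genes changed at least 2-fold numbered 1327 in place of 2072, because fewer genes were tested. Leaving out each library in turn gave 3080 (without total_SMC replicate 3) to 3992 calls, with 1770 to 2466 higher, 1310 to 1580 lower and 1778 to 2044 changed at least 2-fold. The share of calls that were higher was 58.9% in the reported fit, and 49.6% after quantile normalization, 54.6% after cyclic loess, 54.4% on implied reads and 51.3% on CPM of the table. The replicate block gave 3498 calls, 2094 higher and 1404 lower. Same-numbered libraries did not deviate together (correlations -0.076, -0.119 and -0.158). With 3 libraries per group, these correlations cannot exclude a pairing of the samples, and the block is not used elsewhere. No named gene that was called reversed its direction under the 18 alternatives, while genes that were not called, such as Chrm2, Prox1, Krt18, Pdgfrb, Cav1 and Jun, took either sign. Of 355 named genes that were called, 299 were still called in the fit of all 9 libraries and 355 with a pseudocount of 0.5 or 5. Depth limits genes near 0 reads, and genes of more than 1 read per exonic base may hide differences.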
